A study of Mus musculus with 199 samples.

Results

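The regions described here are the 4 Hox domains of the mouse genome, each a stretch of up to 1.5 Mb on either side of the centre of a Hox cluster. Members were the 40 kb windows whose start lay within 1.5 Mb of a fixed point in the HoxA, HoxB, HoxC or HoxD cluster on mm9 chromosomes 6, 11, 15 and 2, a rule that uses position only and no measured value. It gave 281 of the 65983 windows of chromosomes 1 to 19 and X: 75 for HoxA (chr6:50680001-53680000), 76 for HoxB (chr11:94640001-97680000), 55 for HoxC (chr15:101320001-103494974, where the chromosome ends) and 75 for HoxD (chr2:73080001-76080000). By the GENCODE M1 annotation of the same assembly the domains held all 39 Hox genes, with 11 in HoxA, 10 in HoxB, 9 in HoxC and 9 in HoxD. These genes overlapped 16 windows.

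Hox genes encode homeodomain transcription factors that set the identity of segments along the body and limb axes, and their order along the chromosome follows the order in which they are used. In embryonic stem (ES) cells the clusters are largely silent, rich in unmethylated CpG islands and covered by Polycomb-repressed chromatin, and Polycomb-bound clusters are known for contacts with one another. HoxA and HoxD lie beside long regulatory landscapes that hold limb and trunk enhancers. The 4 clusters descend from a single ancestor, so copies of the same neighbouring gene families lie beside several of them.

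The libraries came from genome architecture mapping (GAM), in which DNA of thin nuclear slices (nuclear profiles, NPs) is sequenced and loci that are often found in the same slice (co-segregation) are taken as close in space. The profiles were from 46C mouse ES cells, a Sox1-GFP knock-in line of strain 129/Ola, cut as 220 nm cryosections, and all libraries had failed the quality control of the study. Caps labelled as holding 4 NPs (4NP) gave 186 libraries, and a further 11 libraries were of water and 2 of human genomic DNA (5 ng), in 35 groups from 11 experiments. A value is a call, 1 where a library was positive for a window and 0 otherwise, so depth is known only as the share of the genome called (coverage), from 0.00152% to 26.8% with a median of 2.47% in 4NP libraries.

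The 12 groups of 4NP caps with at least 5 libraries were a full collection stained with cresyl violet (n = 34), PI (propidium iodide) stained caps without (n = 21) and with freezing (n = 21), crystal violet (n = 16) and unstained caps (n = 5) of the experiment titled as a cresyl violet test, eosin in ethanol (n = 8) and in water (n = 8), a proteinase K titration titled 1ul-csc-pk, 3ul-mdc-pk, 4ul-mdc-pk and 8ul-mdc-pk (n = 7 each), and SYBR Gold (n = 15). The other 16 groups of 4NP caps, with 1 to 3 libraries each and 30 in all, enter every value pooled over 186 libraries. They were amplification protocols a and c, 20, 23 and 25 PCR cycles, early and late freezing, caps frozen after incubation and unfrozen ones, small and large kits, 1ul-mdc-pk and 2ul-mdc-pk, and unstained caps of the PI, eosin and SYBR Gold experiments. The titles and protocols of the SYBR Gold test disagree on which caps were stained, and the titles were followed. Nothing in the labels says which caps came from separate cultures, so the spread between libraries may be technical. The assay reads DNA, so ES cell identity could not be checked against markers. Among the water controls, replicate 4 of the full collection and the unstained SYBR Gold control had calls in 21.4% and 21% of windows and stand apart from the other 9, which had at most 0.476%. No control enters the values below unless it is named.

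The sequences that the results below return to are the 250 bases before the annotated start of 4 genes, read from the mm9 genome. Hoxa4 and Hoxa5 lie in the HoxA window that was called in most libraries, Hnrnpa1 lies in the HoxC window that was called in most, and Hnrnpa2b1 is its paralogue in the HoxA domain. Each is written 5′ to 3′ on the strand of its gene, with CG dinucleotides in capitals.
Hoxa4, chr6:52141753-52142002, minus strand: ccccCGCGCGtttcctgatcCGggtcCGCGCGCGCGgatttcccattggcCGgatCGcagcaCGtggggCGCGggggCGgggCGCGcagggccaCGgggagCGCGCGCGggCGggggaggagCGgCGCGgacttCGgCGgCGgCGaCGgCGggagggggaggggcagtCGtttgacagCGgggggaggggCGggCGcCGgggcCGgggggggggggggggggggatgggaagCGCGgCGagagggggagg
Hoxa5, chr6:52154587-52154836, minus strand: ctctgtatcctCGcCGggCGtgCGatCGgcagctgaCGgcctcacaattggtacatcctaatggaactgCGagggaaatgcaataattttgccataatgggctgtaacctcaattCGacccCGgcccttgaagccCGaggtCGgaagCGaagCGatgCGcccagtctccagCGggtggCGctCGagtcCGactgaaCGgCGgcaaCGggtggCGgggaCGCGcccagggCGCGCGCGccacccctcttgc
Hnrnpa1, chr15:103070695-103070944, plus strand: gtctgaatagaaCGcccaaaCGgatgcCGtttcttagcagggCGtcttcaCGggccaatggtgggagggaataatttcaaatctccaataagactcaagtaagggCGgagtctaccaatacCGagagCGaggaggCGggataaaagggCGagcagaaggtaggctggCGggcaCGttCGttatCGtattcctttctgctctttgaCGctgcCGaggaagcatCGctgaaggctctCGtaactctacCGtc
Hnrnpa2b1, chr6:51419894-51420143, minus strand: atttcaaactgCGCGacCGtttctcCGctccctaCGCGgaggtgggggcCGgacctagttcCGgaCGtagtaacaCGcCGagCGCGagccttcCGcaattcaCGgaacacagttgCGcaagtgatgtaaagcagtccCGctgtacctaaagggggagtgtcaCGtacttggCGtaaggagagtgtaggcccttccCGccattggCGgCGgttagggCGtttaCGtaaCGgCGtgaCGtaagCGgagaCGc
They held 41, 28, 19 and 29 CG dinucleotides. Over the 39 Hox genes the median was 11, and 59.0% of them held 10 or more, against a median of 8 and 47.1% for 5466 protein-coding genes of chromosomes 2, 6, 11 and 15. CG reads the same on both strands. Hoxa13 held 35, in a window called in 5 libraries. Whether CG counts go with the number of libraries was not tested for these stretches. These counts describe the windows and no factor's binding.

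The domains also share microRNA families. Members of the miR-10 and miR-196 families lie at matching places in different clusters, while those of the miR-148 and miR-152 family lie outside the clusters. The annotation placed 10 microRNA genes in the domains, 6 of them within the 5 central windows of a cluster, and all 10 matched a RefSeq entry (build GRCm38.p6, used for the sequences only). The mature forms below are grouped by seed, bases 2 to 8, in capitals.
miR-10a-5p (HoxB): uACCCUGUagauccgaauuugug
miR-10b-5p (HoxD): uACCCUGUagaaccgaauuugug
miR-196a-5p (HoxB and HoxC): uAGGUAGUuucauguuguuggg
miR-196b-5p (HoxA): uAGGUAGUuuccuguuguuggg
miR-148a-3p (HoxA): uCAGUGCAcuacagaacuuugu
miR-152-3p (HoxB): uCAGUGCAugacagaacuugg
miR-148b-3p (HoxC): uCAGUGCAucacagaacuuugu
miR-10 and miR-196 target Hox messages and lie inside the clusters. The window of Mir196b was called in 14 of 186 libraries, that of Mir196a-1 in 16 and that of Mir196a-2 in 10, while Mir10a and Mir10b lay in windows called in 11 and 12. The Mir148a, Mir152 and Mir148b windows, outside the clusters at -0.96, 0.56 and 0.28 Mb from the central window, were called in 10, 17 and 15 libraries. The number expected from the chromosome was 8.23 for HoxA, 10.6 for HoxB, 8.91 for HoxC and 9.46 for HoxD. Each of these windows lay above it, that of Mir10a by less than 1 library. The same held for 77.2% of all members and 47.6% of all windows, so nothing is read from it about the microRNA windows.

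The first comparison asked whether the Hox domains were captured as often as the rest of their chromosomes. Windows of the HoxA domain were called in 5.59% of 4NP libraries on average against 4.40% for the other windows of chromosome 6, a ratio of 1.27 ± 0.126 (jackknife SE over libraries, n = 186). The HoxC domain had 6.54% against 4.75%, a ratio of 1.38 ± 0.153. The HoxD domain had 6.14% against 5.07%, a ratio of 1.21 ± 0.127, and the HoxB domain 6.43% against 5.71%, a ratio of 1.13 ± 0.115. Differences of more than 2 SE were counted as beyond error. By that measure HoxA and HoxC were captured more often than their chromosomes, and the excesses of HoxB and HoxD were within error.

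The background sets how these ratios read. Against windows up to 6 Mb from each cluster centre, the ratio stayed at 1.24 ± 0.113 for HoxA but was 1.04 ± 0.106 for HoxC and 1.02 ± 0.102 for HoxD, so the HoxC excess was shared with the surrounding part of chromosome 15. HoxA fell within error in libraries with a coverage of at least 1% (1.24 ± 0.129), without the cresyl violet test (1.19 ± 0.121), without the early freezing test (1.24 ± 0.129) or without the proteinase K titration (1.20 ± 0.146), and HoxC without the PI experiment (1.31 ± 0.188) or without the eosin test (1.33 ± 0.167). Among stretches of the same length tiled along the rest of each chromosome, 1 of 46 had a higher ratio than HoxA, 3 of 44 than HoxC, 6 of 57 than HoxD and 7 of 37 than HoxB.

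Capture was uneven between libraries. The share of the HoxA domain called ranged from 0% through a median of 0% to 78.7%, and 94 of 186 libraries had no call in it. HoxB ranged from 0% through 1.32% to 59.2%, HoxC from 0% through 1.82% to 70.9% and HoxD from 0% through 0% to 62.7%. Between 30 and 40 libraries had more than 10% of a given domain called. The HoxA share was above that of the rest of chromosome 6 in 73 libraries and below it in 99, and for HoxB, HoxC and HoxD the counts were 65 against 110, 71 against 91 and 66 against 111. A library without a call allows a share of up to 4% of the 75 HoxA or HoxD windows, 3.95% of the HoxB windows and 5.45% of the HoxC windows, which covers counting error only.

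The most complete capture of a domain was that of HoxA in unstained replicate 2 of the cresyl violet test, with 59 of 75 windows called in a library that called 29.3% of the rest of chromosome 6. Replicate 9 of the PI stained libraries had 47 of 75 HoxD windows against 10.9% of the rest of chromosome 2. Replicate 7 of that group had 39 of 55 HoxC windows, and replicate 5 of the full collection 45 of 76 HoxB windows. Even so, calls were broken up: the longest unbroken run was 720 kb in HoxA, 1040 kb in HoxB, 480 kb in HoxC and 600 kb in HoxD, and 63.8% to 68.9% of the runs in a domain were a single window, against 64.8% to 68.1% on the rest of the chromosomes.

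**Figure D1:**
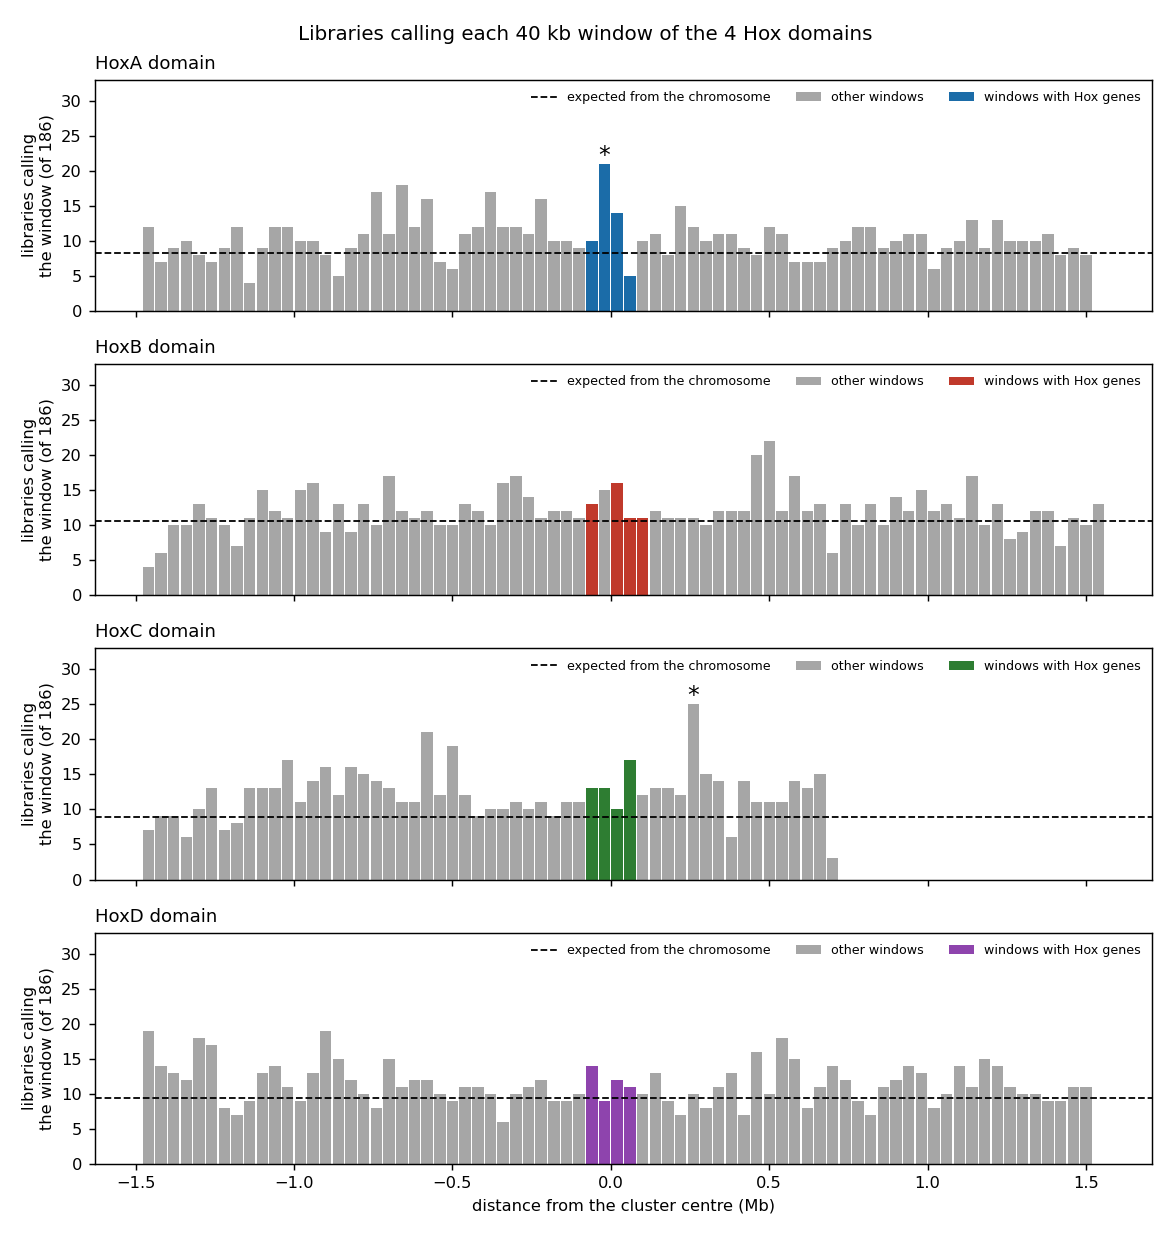
Number of 4NP libraries (of 186) that called each 40 kb window, against distance from the cluster centre in Mb, for the 4 Hox domains. Coloured bars are windows with Hox genes, the dashed line is the number expected from the chromosome, and stars mark the 2 windows called more often than it (21 libraries in HoxA, 25 in HoxC).

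Single windows were then tested against their chromosome with a two-sided exact Poisson-binomial test that uses the share each library called on that chromosome, Benjamini-Hochberg adjusted over 63316 windows. Of the 281 members, all of them tested, 2 were called in more libraries than expected at an adjusted p below 0.05 and 0 in fewer. With windows that no library called tested as well, 6 members were called higher and 0 lower. Over all windows tested, 0.166% were called higher and 0.0111% lower. Without adjustment, 22 members lay above at p below 0.05, or 7.83% against 3.68% of all windows, and 2 lay below, against 3.42% of all windows. More generally 217 members, or 77.2%, were called in more libraries than expected, against 47.6% of all windows. That share ran from 72.4% in HoxB to 89.1% in HoxC. These windows share libraries and are not independent. The 10 libraries with most calls supplied 37.7% (HoxD) to 41% (HoxC) of the calls in a domain, and 25.2% to 28.9% of those on the rest of a chromosome, which is far longer.

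The HoxC window was chr15:103040001-103080000, called in 25 libraries where 8.91 were expected (adjusted p = 0.00145, exact Poisson-binomial test). It holds Hnrnpa1, which encodes an RNA-binding splicing regulator, the Cbx5 gene for the heterochromatin protein HP1 alpha, which starts beside it on the other strand, and the end of Nfe2, an erythroid transcription factor gene. Its calls came from 12 groups in 8 experiments, among them 6 of 21 PI stained, 3 of 21 PI stained and frozen, and 4 of 8 eosin in ethanol libraries. Only 1 of the 25 libraries had a coverage below 1%. Hnrnpa1 has processed copies elsewhere in the genome, and how reads with several matches were placed is not given in the sources used here. The call was lost without the PI experiment (adjusted p = 0.144) and was kept without each of the other 10 experiments.

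The HoxA window was chr6:52120001-52160000, with Hoxa4, Hoxa5 and parts of Hoxa3 and Hoxa6, called in 21 libraries where 8.23 were expected (adjusted p = 0.0408, exact Poisson-binomial test). No control of either kind called it. Of its 21 libraries 7 had a coverage below 1%, where 0.223 were expected, and 5 had no other call in the HoxA domain. Crystal violet libraries, with a mean coverage of 0.559%, contributed 5 of 16, and the full collection 4 of 34. The call was lost among libraries with a coverage of at least 1% (adjusted p = 0.733), with the expected share taken from all chromosomes (adjusted p = 0.0946) and in 17 of 100 cases when single libraries were left out. Over leave-one-out fits its adjusted p ran from 0.0286 to 0.0866. It was also lost without the cresyl violet test (adjusted p = 0.538), the full collection (0.306), the PCR cycle test (0.166), the early freezing test (0.124) or the test of freezing after incubation (0.0799).

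Across the clusters themselves, 14 of the 16 windows with Hox genes (87.5%) were called in more libraries than expected, against 77.2% of all members and 47.6% of all windows. Their median was 12.5 libraries, and 1 of them passed the test. In HoxA the window of Hoxa4 and Hoxa5 was called in 21 libraries, that with Hoxa7 to Hoxa11 in 14 and that of Hoxa13 in 5. Of these the count was lowest at Hoxa13, whose gene acts in the limb tip and the tail end of the trunk, and the Hoxa13 window did not pass the test (adjusted p = 0.971, exact Poisson-binomial test). In HoxB the window of Hoxb13 was called in 13 libraries, that from Hoxb9 to Hoxb6 in 16, and both windows from Hoxb5 to Hoxb1 in 11. In HoxC the windows from Hoxc13 to Hoxc4 were called in 13, 13, 10 and 17 libraries. In HoxD the window of Evx2 and Hoxd13 to Hoxd11 was called in 14 libraries, the next, with Hoxd10 to Hoxd3, in 9, and the windows of Hoxd4 and Hoxd1 in 12 and 11. The window of Evx1, the homeobox gene beside HoxA, was called in 10. Windows with Hox genes were rich in CpG, with 18.2 to 23.9 per kb against 10.1 to 14.4 in the rest of the domains and 7.9 to 9.68 on the rest of the chromosomes. The Hoxa13 window was the cluster window called in fewest libraries at 19.8 CpG per kb.

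Gene families with copies beside several clusters were listed with earlier results of these data known, so their counts are a description. Of 36 listed genes, 33 lay in the domains and 3 (Sp3, Sp5, Igf2bp3) outside. The 33 genes overlapped 65 windows, of which 57 (87.7%) were called in more libraries than expected, against 77.2% of all members and 47.6% of all windows. By the test 1 was higher and 0 were lower. The paralogous groups of Cbx genes (chromobox proteins that read histone methylation), Hnrnpa genes (RNA-binding proteins) and Nfe2 genes (stress and erythroid transcription factors) are a clear case, since they recur side by side. The window of Cbx3, Hnrnpa2b1 and the end of Nfe2l3 in the HoxA domain was called in 17 libraries (8.23 expected), that of Cbx5, Hnrnpa1 and Nfe2 in HoxC in 25 (8.91 expected), that of Hnrnpa3 in HoxD in 14 (9.46 expected) and that of Cbx1 in HoxB in 12 (10.6 expected). All 4 lay above their chromosome, and the HoxC window alone passed the test.

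The windows called in most libraries of each domain include the following. In HoxB, chr11:96600001-96640000 with the end of Skap1 (a T cell adaptor gene) and Snx11 (a sorting nexin) was called in 22 libraries (adjusted p = 0.178, exact Poisson-binomial test), and the Skap1 window before it in 20. In HoxA the Snx10 window was called in 18 libraries, and the Skap2 gene had 10 to 16 over 5 windows. In HoxC the window of Sp1, which encodes a zinc finger activator, was called in 21 libraries (adjusted p = 0.0783, exact Poisson-binomial test). In HoxD the windows at the end of Atf2, a stress-responsive factor gene, and of Sp9 were both called in 19 (adjusted p = 0.308, exact Poisson-binomial test). None of these passed the threshold.

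Several windows called in fewest libraries lay at the edges or held no gene. HoxA had its minimum of 4 libraries at chr6:51000001-51040000, followed by 5 at chr6:51280001-51320000, neither with a protein-coding gene, and 5 at the Hoxa13 window. HoxB had 4 at its first window and 6 at the next. HoxC had 3 at its last window, which is cut short by the end of the chromosome, and HoxD had 6 at chr2:74200001-74240000. At the boundaries that the rule sets, the first and last windows were called in 12 and 8 libraries in HoxA, 4 and 13 in HoxB, 7 and 3 in HoxC and 19 and 11 in HoxD, and the next windows outside in 10 and 8, 9 and 9, 16 (no window beyond the chromosome end) and 16 and 6. Counts on both sides of the edges overlapped.

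Base composition differed between the domains and the rest of their chromosomes. GC content was 43.7% in HoxA, 48.0% in HoxB, 46.2% in HoxC and 42.3% in HoxD, against 41.4%, 43.7%, 41.9% and 42.1% on the rest of the chromosomes. Across the other windows of a chromosome, GC content and the number of libraries had a Pearson's r of 0.22 to 0.34 over 2458 to 4341 windows, which share libraries and are not independent. Within the domains it was between -0.16 and 0.02 over 55 to 76 windows. HoxB had the highest GC content and the lowest ratio. Protein-coding genes per Mb numbered 8.33 in HoxA, 26 in HoxB, 33.2 in HoxC and 9.67 in HoxD, against 7.83, 13.6, 7.70 and 10.2 on their chromosomes, so HoxB and HoxC were denser in genes than their chromosomes and HoxA and HoxD close to them. The part of base composition and gene density in the ratios was not tested.

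Linkage within the domains was measured as D′, the normalized linkage disequilibrium of the calls of a pair of windows, which is 1 where the rarer window is called only together with the other and -1 where they are never called together. Pairs inside a domain at 40 kb to 1 Mb had a mean D′ of 0.274 ± 0.0752 (jackknife SE, n = 186 libraries) in HoxA, 0.328 ± 0.0454 in HoxB, 0.284 ± 0.0628 in HoxC and 0.303 ± 0.0562 in HoxD. At the same distances on the rest of the chromosomes it was 0.198, 0.294, 0.221 and 0.240. The differences were 0.0760 ± 0.0562, 0.0343 ± 0.0483, 0.0631 ± 0.0661 and 0.0637 ± 0.0561. All 4 were above 0 and within 2 SE of it, so intervals of 2 SE hold both no difference and an excess of up to 0.188 in HoxA. The HoxA difference was beyond 2 SE without the eosin test (0.121 ± 0.0579), and the HoxC difference without the proteinase K titration (0.205 ± 0.0869). Against windows within 6 Mb the differences were 0.0647 ± 0.0449, -0.0211 ± 0.0701, -0.0206 ± 0.0682 and -0.0301 ± 0.0604, so those of HoxB, HoxC and HoxD turned below 0. Single libraries also carried weight: the difference was 0.0441 for HoxA without unstained replicate 2 of the cresyl violet test, 0.0120 for HoxB without SYBR Gold replicate 8, 0.0278 for HoxC without PI stained replicate 12 and 0.0296 for HoxD without PI stained replicate 9.

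**Figure D2:**
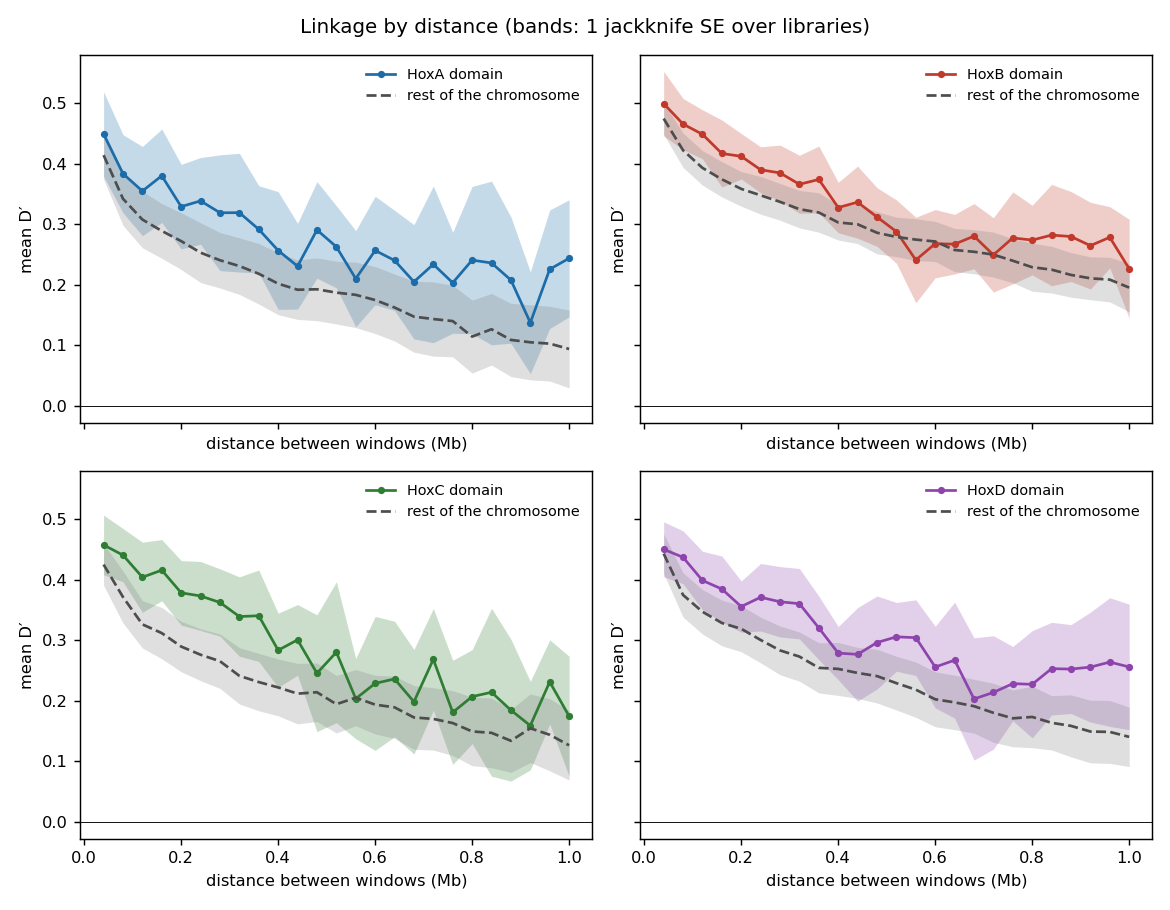
Mean D′ of window pairs against their distance in Mb, inside each Hox domain (coloured) and on the rest of its chromosome (dashed), with bands of 1 jackknife SE over 186 libraries. D′ was lower at 1 Mb than at 40 kb in all 4 domains and lay above the chromosome at 22 to 25 of 25 distances.

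Neighbouring windows in the HoxA domain had a D′ of 0.449 ± 0.0698, and pairs 1 Mb apart 0.244 ± 0.0965, as the plot of linkage by distance shows. The HoxA curve lay above that of chromosome 6 at 25 of 25 distances, and so did the HoxD curve above that of chromosome 2. HoxC was above at 24 and HoxB at 22. Distances share libraries and windows, and at 0 of these 25 did a difference exceed 2 SE. At the 25 distances from there to 2 Mb, HoxA lay above its chromosome at 24, HoxB at 10, and HoxC and HoxD at 25. Differences beyond 2 SE were those of HoxD at 1120 kb (0.182 ± 0.0653) and 1160 kb (0.135 ± 0.0647) and of HoxC at 1440 kb (0.229 ± 0.0771, from 19 pairs). Joint calls were few: a pair of windows in a domain was called together in a median of 3 libraries and in at most 9 (HoxA) to 13 (HoxB). In HoxA 134 of 2775 pairs were never called together.

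**Figure D3:**
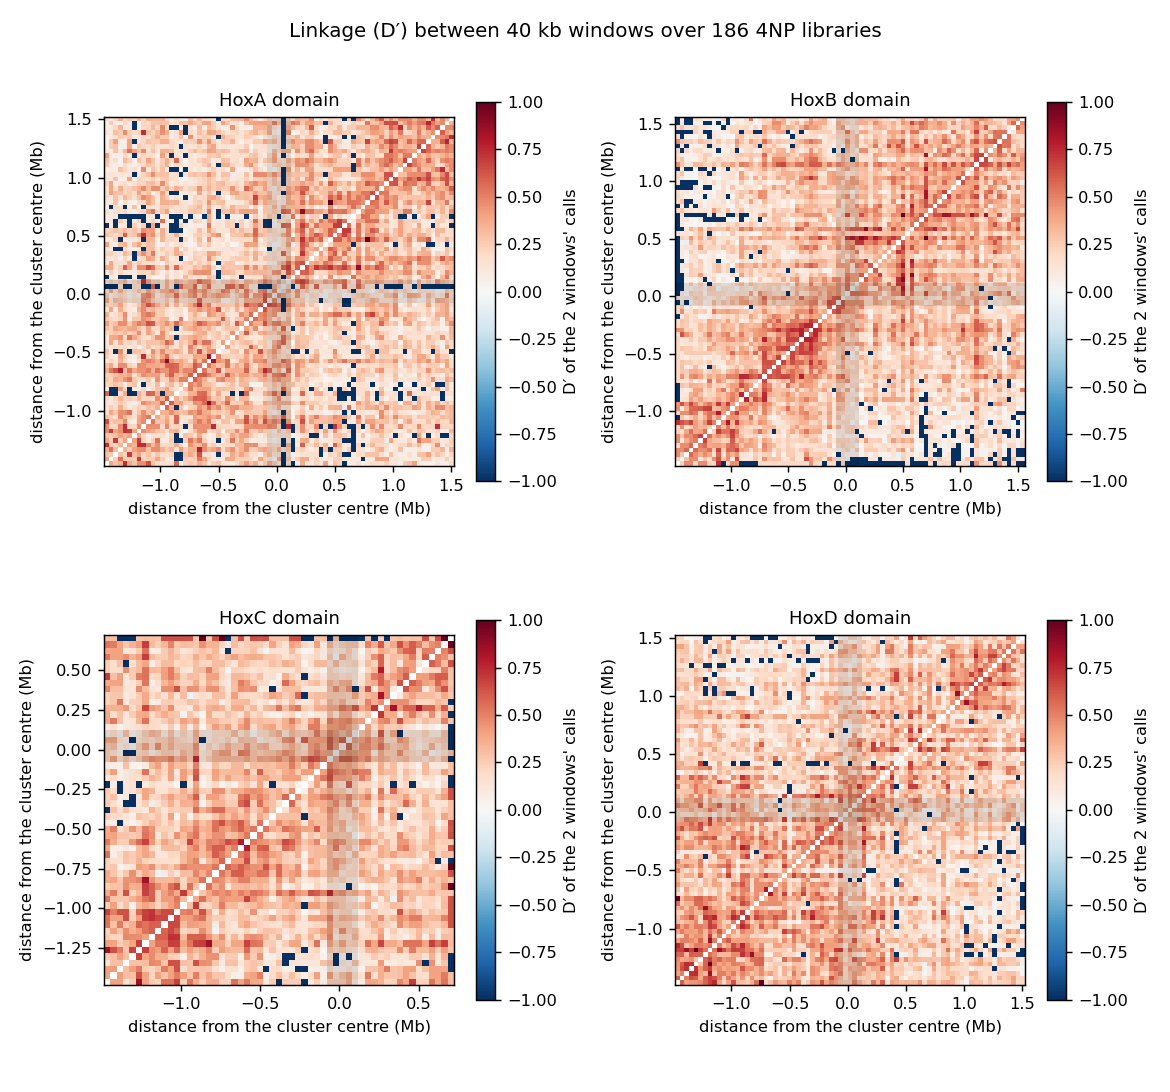
D′ between all pairs of 40 kb windows in each Hox domain over 186 libraries, with both axes as distance from the cluster centre in Mb and the 5 central windows shaded. Dark blue points are pairs that no library called together, and the dark bands in HoxA are the Hoxa13 window, called in 5 libraries and never together with 26 of the other 74 windows.

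The linkage maps asked whether the clusters divide their domains. Pairs with a window in the 400 kb before and a window in the 400 kb after the 5 central windows had a D′ of 0.212 ± 0.0891 in HoxA, 0.297 ± 0.0789 in HoxB, 0.208 ± 0.108 in HoxC and 0.241 ± 0.0960 in HoxD. Against pairs at the same distances on the rest of the chromosome the differences were 0.0424 ± 0.0809, 0.0278 ± 0.0882, 0.0165 ± 0.108 and 0.0305 ± 0.105. The difference was 0.00676 in HoxA without 4ul-mdc-pk replicate 4, -0.0169 in HoxB without replicate 1 of 25 PCR cycles, -0.0406 in HoxC without eosin in ethanol replicate 3 and -0.0289 in HoxD without PI stained replicate 9. No reduction across a cluster was detectable at this depth, and intervals of 2 SE reach from -0.199 to 0.232 in HoxC. In a 400 kb square moved along the chromosome, the centre of HoxA lay at the 35.2 percentile of chromosome 6, HoxB at 38 of chromosome 11, HoxC at 59.6 of chromosome 15 and HoxD at 43.4 of chromosome 2. The lowest values inside the domains lay at -1.12 Mb in HoxA, -1.48 Mb in HoxB, 0.28 Mb in HoxC and 0.36 Mb in HoxD, at the 16.8 to 36 percentile, and the highest in HoxD at -1.4 Mb, at the 99.3 percentile.

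The 2 flanks of each cluster were compared at distances present on both sides, from 120 kb to 1 Mb in HoxA, HoxB and HoxD and to 760 kb in HoxC, where the chromosome ends. The 5 central windows of HoxC had a D′ of 0.325 ± 0.0866 with the low-coordinate side, beyond Hoxc13, and 0.124 ± 0.0696 with the side beyond Hoxc4, a difference of 0.201 ± 0.0819. It was beyond 2 SE, but not with the phi coefficient (0.0845 ± 0.0621), not with phi within groups (0.105 ± 0.0697), not over windows called in at least 5 libraries (0.0748 ± 0.0807), and not without the eosin test (0.251 ± 0.127), the PI experiment (0.319 ± 0.184) or the proteinase K titration (0.0367 ± 0.134). HoxA had 0.282 ± 0.107 with the low side, which holds Skap2 and Snx10, and 0.146 ± 0.133 with the side beyond Hoxa13, a difference of 0.136 ± 0.154, which was 0.0446 without replicate 1 of early freezing and 0.245 without replicate 1 of late freezing. In HoxD the side beyond Evx2, with Lnp and Atf2, and the side beyond Hoxd1, with Mtx2, gave the same D′ of 0.260, a difference of -0.000279 ± 0.140, or 0.124 without PI stained replicate 7. In HoxB the difference was -0.0431 ± 0.0554, and between -0.0710 and -0.0240 when single libraries were left out.

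**Figure D4:**
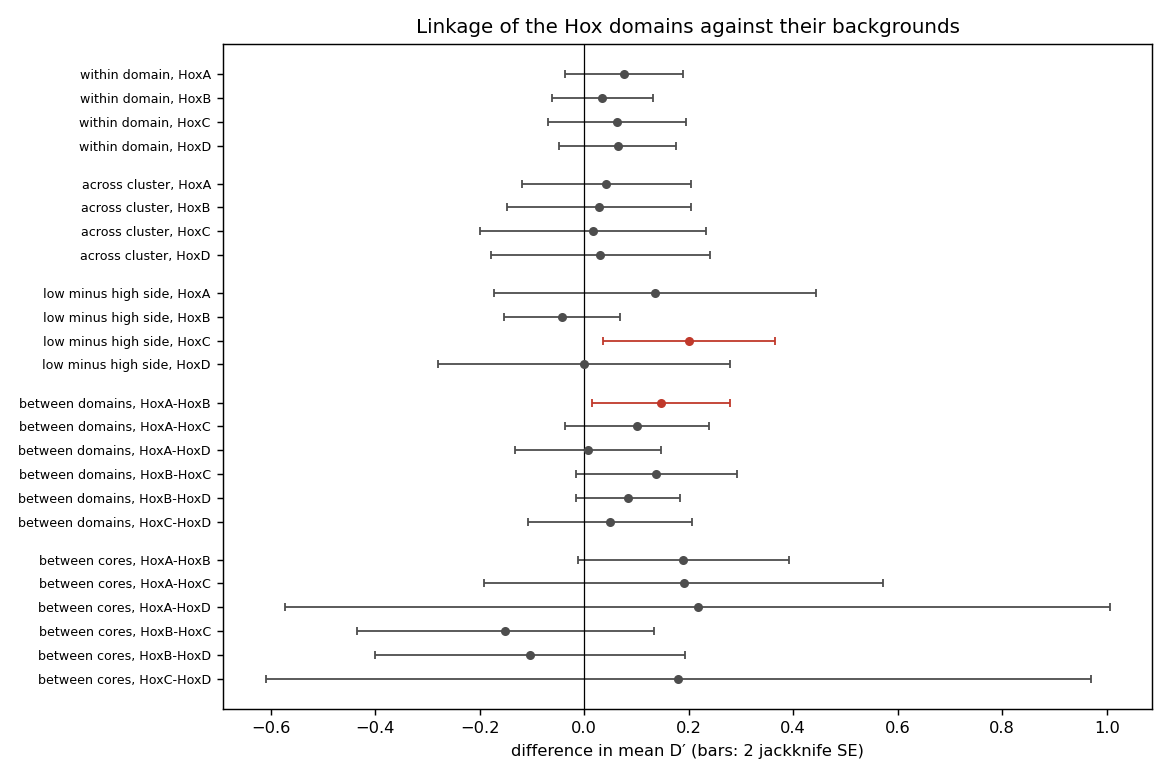
Differences in mean D′ for the Hox domains against their backgrounds, with bars of 2 jackknife SE over 186 libraries. Of 24 differences the 2 in red, the HoxC flanks (0.201) and HoxA with HoxB (0.147), have bars that do not reach 0.

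Co-segregation between clusters was measured over the 6 pairs of domains. D′ is -1 for every pair of windows never called together, so its mean also depends on how often windows were called. The domains had call rates 1.13 to 1.38 times those of the rest of their chromosomes. The part of call rate in the differences below was not tested. The D′ between the HoxA and HoxB domains was -0.0556 ± 0.118, against -0.203 ± 0.0782 between each of them and the rest of the other's chromosome, a difference of 0.147 ± 0.0659 beyond 2 SE. The other 5 pairs had differences of 0.138 ± 0.0767 (HoxB and HoxC), 0.101 ± 0.0687 (HoxA and HoxC), 0.0837 ± 0.0497 (HoxB and HoxD), 0.0488 ± 0.0782 (HoxC and HoxD) and 0.00776 ± 0.0697 (HoxA and HoxD), all above 0 and within 2 SE. Without PI stained replicate 7 the difference was 0.0742 for HoxB and HoxC, 0.0529 for HoxA and HoxC, -0.00457 for HoxC and HoxD and -0.0431 for HoxA and HoxD. The HoxA and HoxB difference was within 2 SE with the phi coefficient (0.0241 ± 0.0184), with phi within groups (0.0352 ± 0.0210) and over windows called in at least 5 libraries (0.131 ± 0.0658). It was also within 2 SE without the full collection (0.147 ± 0.0744), the PI experiment (0.138 ± 0.0847) or the proteinase K titration (0.0703 ± 0.100). The HoxB and HoxC difference passed 2 SE without the eosin test (0.172 ± 0.0733), the full collection (0.162 ± 0.0808) or the proteinase K titration (0.206 ± 0.0983), and that of HoxB and HoxD without the titration (0.128 ± 0.0598).

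Among the 5 central windows of each cluster, differences ranged from -0.151 ± 0.142 (HoxB and HoxC) to 0.217 ± 0.395 (HoxA and HoxD), none beyond 2 SE over all 186 libraries. When single libraries were left out, the HoxB and HoxC difference ran from -0.241 to -0.0963. The HoxA and HoxD difference was -0.157 without replicate 14 of the full collection, and the HoxC and HoxD difference, 0.180 ± 0.395, was -0.206 without PI stained replicate 7. That of HoxA and HoxB, 0.190 ± 0.101, passed 2 SE without the early freezing test (0.241 ± 0.102), the full collection (0.263 ± 0.0977) or the PCR cycle test (0.205 ± 0.102). A central window was called in 39 libraries for HoxA, 35 for HoxB, 33 for HoxC and 33 for HoxD. The HoxA and HoxB centres were both present in 14 libraries, HoxA and HoxC in 13, HoxB with HoxC and HoxB with HoxD in 9 each, and HoxA with HoxD and HoxC with HoxD in 7 each. In 95 libraries no cluster centre was called, in 52 there was 1, in 29 there were 2 and in 10 there were 3. No library held all 4. Over whole domains, 3 libraries had more than 10% of each of the 4. These counts were not set against numbers expected from the single clusters, and nothing is read from them about contacts.

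Across conditions the domains together were mostly captured above the genome average, while single domains differed between groups. The share called was divided by the genome coverage of the same libraries, which differs from the chromosome ratio above. Over the 4 domains together it was above 1 in 11 of the 12 groups with at least 5 libraries and below it in 1ul-csc-pk (0.987 ± 0.286). In 4 of these 11, leaving out 1 library took it below 1, to 0.911 in unstained caps of the cresyl violet test (without replicate 2), 0.910 in eosin in ethanol (replicate 1), 0.964 in 8ul-mdc-pk (replicate 3) and 0.903 in SYBR Gold (replicate 8). It was more than 2 SE above 1 in crystal violet (2.79 ± 0.316), the full collection (2.15 ± 0.324) and PI stained and frozen libraries (1.56 ± 0.175), and more than 2 SE below it in 0 groups. Crystal violet and full collection libraries had mean coverages of 0.559% and 1.16%, and the 9 water controls with a coverage below 1%, which hold no profiles, had a ratio of 3.39 ± 1.20 by the same measure, within 2 SE of 1. The part of low coverage in the group ratios was not tested. For single domains the ratio was above 1 in 10 groups for HoxA, 9 for HoxC, and 7 each for HoxB and HoxD. Of these 48 ratios, 33 were above 1, 7 were more than 2 SE above 1 and 4 were more than 2 SE below it. Full collection libraries had a HoxB ratio of 4.10 ± 1.02 (n = 34) and a HoxC ratio of 0.553 ± 0.208. The HoxB ratio rests mainly on replicates 5, 8 and 14, with 45, 32 and 35 windows called. Every other library of that group had at most 6, and most had none. Crystal violet libraries had ratios of 3.28 ± 0.768 for HoxA, 1.62 ± 0.459 for HoxB, 2.85 ± 0.666 for HoxC and 3.43 ± 0.724 for HoxD (n = 16). Eosin in ethanol libraries had 2.21 ± 0.598 for HoxC and 0.355 ± 0.239 for HoxB (n = 8), the latter 0.118 without replicate 1.

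**Figure D5:**
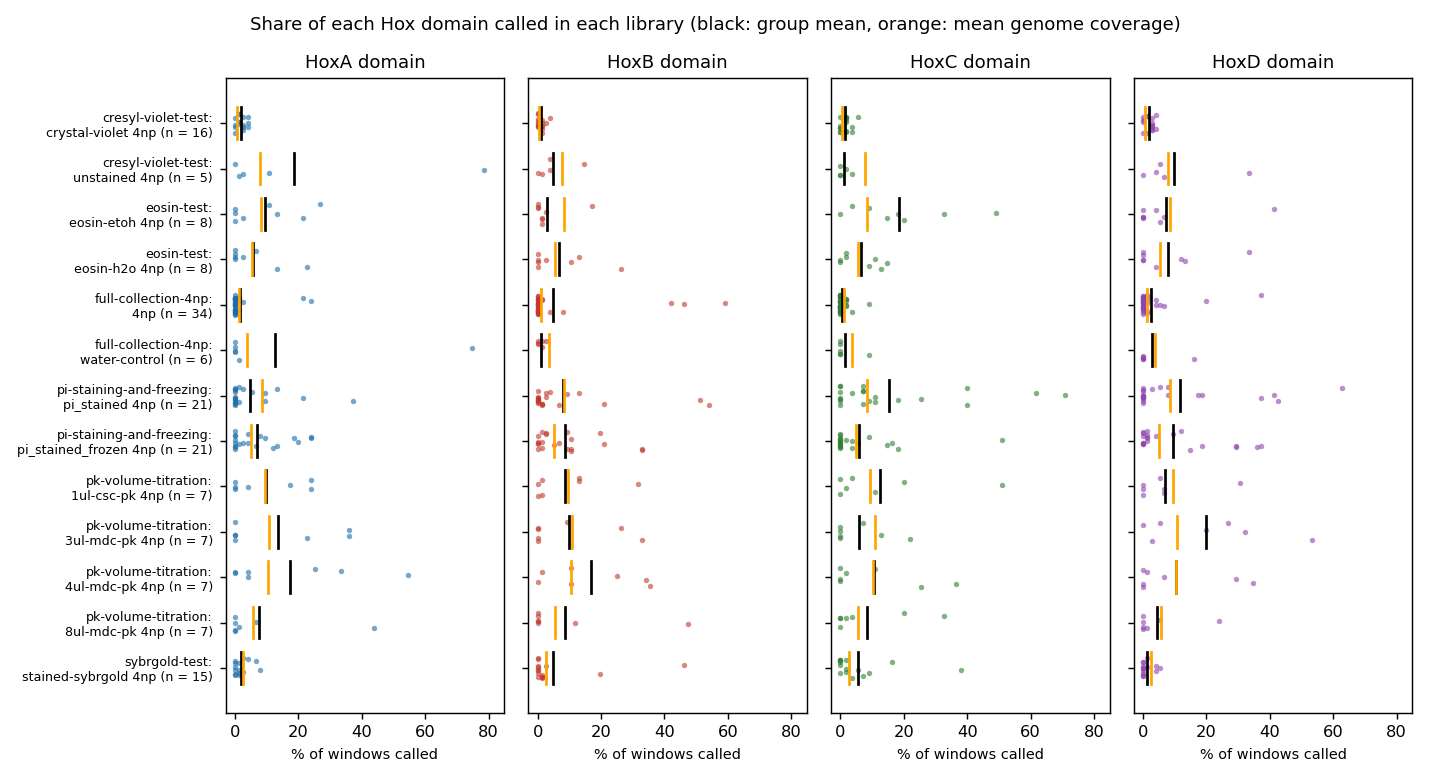
Share of the windows of each Hox domain called in each library (points, in percent) for the 12 groups of 4NP caps and 1 group of water controls with at least 5 libraries. Black bars are group means and orange bars mean genome coverage, and most groups hold libraries near 0 beside a few far above the rest, up to 78.7% in HoxA.

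Libraries of low coverage, a set chosen after the data were seen, had larger ratios with larger errors. In the 73 libraries with a coverage below 1% the ratio to the rest of the chromosome was 2.21 ± 0.521 for HoxA, 1.83 ± 0.521 for HoxB, 2.31 ± 0.548 for HoxC and 2.06 ± 0.332 for HoxD. These rest on 36, 43, 24 and 50 calls. In the 113 libraries with a coverage of at least 1% they were 1.24 ± 0.129, 1.11 ± 0.117, 1.36 ± 0.156 and 1.18 ± 0.131, of which that of HoxC alone was beyond 2 SE of 1. Over the 4 domains together, and relative to genome coverage, the ratio was 2.52 ± 0.261 below 1% and 1.30 ± 0.0716 from 1% upward. Water controls without profiles had a ratio at least as high, 3.39 ± 1.20, at coverages of 0.0530% to 0.476%. The differences between these sets of libraries were not tested.

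PI stained libraries with and without freezing (n = 21 each) were compared window by window. Fisher's exact test with Benjamini-Hochberg adjustment over 59710 windows called 0 of the 275 members tested, and 0% of all windows. At an unadjusted p below 0.05, 1 member (in HoxC) was higher without freezing and 0 with it, against 0.996% and 0.0352% of all windows. Over all tested windows a library called 9.24% without freezing and 5.54% with it, and 57.9% of windows had more libraries without freezing and 22.5% with it. The HoxC domain had 15.5% of its tested windows called per library without freezing and 6% with it, and 45 of 54 windows (83.3%) had more libraries without freezing. HoxA went the other way, with 5.17% and 7.55% and 34 of 70 windows (48.6%) had more libraries with freezing. HoxB had 8.02% and 8.46%, and HoxD 11.6% and 9.40%. Within a domain, windows share their libraries, so these counts are a description.

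In the controls, the 9 water controls of low coverage had 0 to 4 calls among the 281 windows, 13 in all. This is a mean share of 0.514% at a mean coverage of 0.152%, a ratio of 3.39 ± 1.20 (jackknife SE, n = 9), and 7 of the 9 had a higher share in the domains than in the genome. The cresyl violet test's control had 4 calls (1.42% against a coverage of 0.300%) and the stained SYBR Gold control 3 (1.07% against 0.0985%). Without the latter the ratio was 2.81, and without replicate 6 of the full collection 4.41. The human DNA controls had 0, which allows a share of up to 1.07%. In replicate 4 of the water controls of the full collection, calls covered 56 of 75 HoxA windows, 1 of 76 HoxB, 5 of 55 HoxC and 12 of 75 HoxD windows. The unstained SYBR Gold water control had 7, 5, 11 and 33. The HoxA share of the former, 74.7%, was exceeded by 1 of 186 4NP libraries. The origin of the DNA in these wells was not tested.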

How the data were processed

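The authors mapped reads to mm9 (Bowtie2, version 2.1 per the labels) and by means of Samtools kept 1 copy of each amplified read. In GAMtools a 40 kb window counted as called once 4 or more reads fell in it, whatever the library. The deposited values are these calls, 0 or 1. They hold no read depth, and amplified reads without molecular identifiers are not independent molecules, so a count of libraries covers no loss before sequencing. All libraries had failed quality control. Libraries that passed are not analysed here, so each value is conditional on that failure. Window ends equalled the lengths of the NCBIM37 (mm9) chromosomes, and genes came from GENCODE M1.

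Groups followed the titles, and replicate numbers only name libraries. Windows called in no library were not tested. D′ used windows called in at least 2 of the 186 4NP libraries, with each distance weighted equally. The expected number of libraries was the sum of the shares each library called on that chromosome, and jackknife SE came from leaving out 1 library at a time. Named windows were those with a Hox gene, Evx1 or Evx2, the 2 called in most and in fewest libraries of a domain, up to 5 with the smallest adjusted p, and those of a list of neighbouring families. The members and lists were chosen with earlier results of these data known. The window test was run on simulated data with independent windows, and the jackknife SE on simulated calls in short runs. Neither simulation held linkage over long distances, so neither shows how these measures behave with the linkage seen here. The values of 1 gene are not reported here. Alternatives were other libraries, experiments, backgrounds, domain widths, linkage measures and filters. Scripts used Python 3.11.15, NumPy 2.4.6, SciPy 1.17.1 and Numba 0.67.0.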

Additional observations from a re-analysis of the deposited data

Results flagged for a closer look

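Of 32 combinations of a Hox domain and a group of 4 to 10 libraries, 15 had a library far above the others by Dixon's criterion at the 95% level, where chance gives about 1 in 20. In the unstained libraries of the cresyl violet test (n = 5), HoxA was called at 78.7% in replicate 2 (next 10.7%), HoxB at 14.5% in replicate 3 (next 3.95%) and HoxD at 33.3% in replicate 5 (next 6.67%). In eosin in ethanol (n = 8), replicate 1 had 17.1% of HoxB (next 2.63%) and 41.3% of HoxD (next 6.67%). In eosin in water (n = 8), replicate 7 had 33.3% of HoxD (next 13.3%). In the full collection water controls (n = 6), replicate 4 had 74.7% of HoxA (next 1.33%), 9.09% of HoxC (next 0%) and 16% of HoxD (next 0%). In 1ul-csc-pk (n = 7), replicate 3 had 31.6% of HoxB (next 13.2%) and 50.9% of HoxC (next 20%), and replicate 4 had 30.7% of HoxD (next 6.67%). In 8ul-mdc-pk (n = 7), replicate 3 had 44% of HoxA (next 6.67%) and 47.4% of HoxB (next 11.8%), and replicate 6 had 24% of HoxD (next 5.33%). A domain is called in runs, so its share in a library is far from normally distributed, which the criterion assumes.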

How the results depend on the processing

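Of 265 comparisons of a result with its value under an alternative, 238 were the same, 19 weaker and 8 stronger. Among them, 0 called values changed sign. Ratios and differences were judged by their side of 2 SE, and counts of windows by the size of the change. Where libraries or experiments were left out in turn, only the lowest and highest values entered. Most ratios and differences were within 2 SE over all libraries, so being the same mostly meant staying within error. Of the 248 comparisons with a sign, 205 kept it and 43, in 13 of 28 results, changed it, all for differences within 2 SE. Among libraries with a coverage of at least 1% the HoxA call ratio was 1.24 and 1 window was called, and among those below 1%, chosen after seeing the data, the HoxD ratio was 2.06. With the phi coefficient, phi within groups and windows called in at least 5 libraries, the HoxC flank difference was 0.0845, 0.105 and 0.0748, and the HoxA and HoxB domain difference 0.0241, 0.0352 and 0.131. Against windows within 6 Mb the HoxC ratio was 1.04. With the expected share from all chromosomes 1 window was called, and with no filter on windows 6. Leaving out single libraries gave a HoxA ratio of 1.22 to 1.29, a HoxA and HoxB difference of 0.115 to 0.169 for domains and 0.149 to 0.242 for centres, a HoxB and HoxD domain difference of 0.0629 to 0.101 and 1 to 2 called windows (over the 100 libraries with most calls in the domains). Leaving out whole experiments, the HoxA ratio fell to 1.19 (without the cresyl violet test) and the HoxC ratio to 1.31 (without the PI experiment), the HoxC flank difference ran from 0.0367 (without the proteinase K titration) to 0.319 (without the PI experiment), and 1 window was called at the lowest. Without the titration the HoxC local difference was 0.205, and the domain differences 0.0703 for HoxA and HoxB, 0.206 for HoxB and HoxC and 0.128 for HoxB and HoxD. Without the full collection the HoxA and HoxB centre difference was 0.263. The causes were not tested. No paired analysis was possible because replicate numbers only follow the order of the records. Joint calls limit the linkage, since a pair of windows was called together in a median of 3 libraries.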
